A study of Macaca mulatta with 2 samples.

Results

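MERTK, AXL, TYRO3, GAS6, PROS1, MFGE8, SCARB1, CD36, LRP1 and ELMO1 are receptors, bridging proteins and adaptors through which a cell recognises and swallows dying neighbours and cast-off cytoplasm. They were chosen by name, as all gene probes that the array annotates with 1 of these 10 symbols, and they make up 10 of 21509 gene names and 20 of 50238 probes. Their mRNA was measured in 2 primary Sertoli cell cultures from rhesus macaque testis, each on 1 one-colour array of human oligonucleotides. The infant culture came from males under 3 months of age. The pubertal culture came from males of 18 to 22 months whose puberty had been induced by gonadotropin-releasing hormone, pulsed through a catheter for 4 to 5 weeks, 1 pulse of 2 min every 3 h at a rate of 0.15 µg/min. Before extraction both cultures had 12 h with FSH, the follicle-stimulating hormone, at 5 ng/ml and with testosterone at 100 nM, so neither array shows cells without hormone. With 1 array per group there was no replicate and no test. Animal, culture, age and hormone induction cannot be told apart, and how many animals each culture pools is not stated in the labels.

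A Sertoli cell surrounds developing germ cells, and it takes up the germ cells that die and the residual bodies that spermatids shed. Dying cells expose phosphatidylserine on their surface. GAS6 and protein S (PROS1) bind that lipid and bridge it to the TAM receptor tyrosine kinases TYRO3, AXL and MERTK, and MFGE8 bridges it to integrins. SCARB1 and CD36 bind lipids and phosphatidylserine directly, LRP1 is an endocytic receptor of the lipoprotein receptor family, and ELMO1 works with DOCK proteins to switch on the GTPase RAC1, which drives the actin cup around the particle.

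The measurements rest on the 60-base probes, of which some are shown here. The TYRO3 probe and the brightest probes of SCARB1 and PROS1, which also enter the differences described below, are not shown. MERTK had 4 probes, of which a pair overlapped by 39 bases, so these are not independent readings. The first 30 of the shared bases are given in capitals. The GAS6 probe and the dimmer of the measured PROS1 probes are shown because these related ligands had the pair of highest single-probe differences. The MFGE8 probes share a run of 10 bases, in capitals, that recurs in different surroundings. Of the SCARB1 probes, the 2 dimmer ones are shown because 1 was measured in both cultures and 1 in the infant culture only.
MERTK, opening of the shared stretch: TCTTCCTTACCAAGTGAACTCCATGGCCCC
GAS6: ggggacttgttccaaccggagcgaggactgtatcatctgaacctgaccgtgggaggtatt
PROS1, dimmer measured probe: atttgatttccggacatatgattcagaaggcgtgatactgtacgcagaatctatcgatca
MFGE8, dimmer probe: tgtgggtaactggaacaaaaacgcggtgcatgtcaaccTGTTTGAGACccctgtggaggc
MFGE8, brighter probe: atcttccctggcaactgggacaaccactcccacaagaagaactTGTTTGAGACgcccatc
SCARB1, measured in both: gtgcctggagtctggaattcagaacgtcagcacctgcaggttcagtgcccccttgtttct
SCARB1, measured in infant only: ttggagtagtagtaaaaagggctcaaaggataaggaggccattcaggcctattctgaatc

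No pair of probes of different members shared more than 10 bases in a row (175 pairs), and GAS6 shared at most 7 with a PROS1 probe. Against all probes of other names on the array the longest shared run was 17 bases, between AXL and C19orf28. GC content of the 20 probes lay between 35% and 55%. The coordinate field of all 20 reads "unmapped", so no genome position is given for them. All 10 names also occur in macaque gene tables, but how well each human probe pairs with the monkey transcript was not tested, so signals are compared between arrays for the same probe and not between probes. The summed signals of cell markers given below depart from this, since they add probes of different genes.

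On both arrays 16 of the 20 probes were well above background, at least 1 for each of the 10 members. Another 3 probes were above background on neither array and 1 on the infant array alone. No member spot was saturated, marked as an outlier or placed in a disturbed area of the slide, where neighbouring spots of unrelated genes differed together. Values below are processed signals in intensity units, then log2 differences, pubertal minus infant, after subtraction of the 75th percentile of each array (406.7 pubertal and 382.4 infant). The error after ± is that of the scanner software, and holds for the spot measurement alone, with nothing of the spread between cultures. The median error over all genes was 0.20. Over the arrays, 14243 genes were measured on both, with a median difference of -0.06. All 12 Sertoli cell markers looked up, among them SOX9, WT1, GATA4 and FSHR, were above background in both cultures. FSHR read 42.3 units in the pubertal culture and 23.0 in the infant culture, the latter near the lowest signals counted as above background. SOX9 had 1 spot in a disturbed area.

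**Figure D1:**
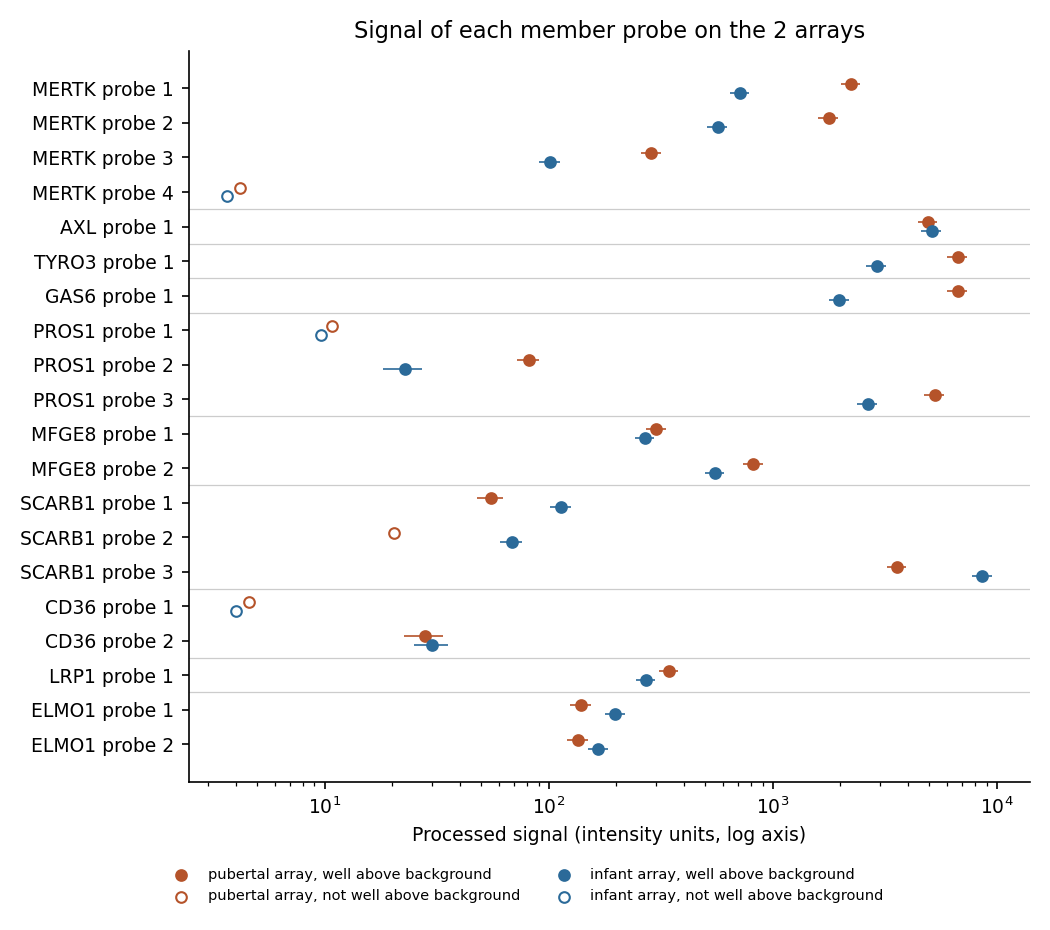
Processed signal of each of the 20 member probes (log axis, intensity units) on the pubertal and the infant array. Filled points are well above background, with bars of the scanner error, and open points, drawn without bars, are not. The pubertal point lies to the right of the infant point for the 3 measured MERTK probes, TYRO3, GAS6 and both measured PROS1 probes, and to the left for all SCARB1 and ELMO1 probes. Probes number from 1 within a gene, and points are to be compared within a probe only.

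In the pubertal culture the signals of 4 members were at least 2-fold higher: GAS6, MERTK, PROS1 and TYRO3. That of SCARB1 was at least 2-fold lower, and the other 5 lay within 2-fold. The 4 higher members are 2 of the 3 TAM receptors and the TAM ligands among the members, GAS6 and PROS1. The other receptor, AXL, stood at -0.14. Among all genes measured on both arrays, 7.32% reached 2-fold upward, beside 4 of the 10 members, and 6.32% reached it downward, beside 1 of the 10. The members' median difference was 0.27. The members were picked for a shared function, with earlier results of these data known, and no more is read from these shares.

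**Figure D2:**
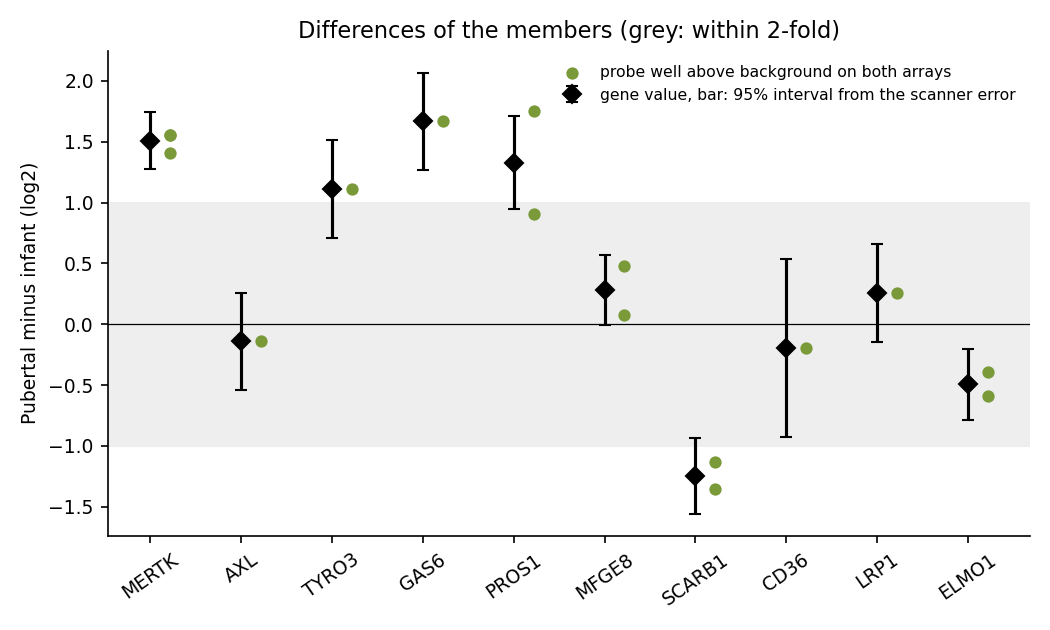
Difference of each member, pubertal minus infant on the log2 scale. Diamonds give the gene value with a 95% interval from the scanner error, and points give its probes that were well above background on both arrays. GAS6, MERTK, PROS1 and TYRO3 lie above the grey band of 2-fold and SCARB1 below it, while the PROS1 probes fall on either side of the band's edge.

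MERTK is the TAM receptor best known for clearing residual bodies in the testis and photoreceptor tips in the retina. Its brightest probe read 2239 intensity units in the pubertal culture against 715 in the infant culture, and its overlapping partner 1773 and 568. The third probe, which does not overlap them, read 286 and 102. All 3 were higher on the pubertal array, by 1.56, 1.55 and 1.41. Their mean gave a difference of 1.51 ± 0.12, or 2.84-fold, with an interval of 1.27 to 1.74 on the log2 scale from the scanner error. If the overlapping pair is taken to share its whole error, the interval is 1.21 to 1.81. The fourth MERTK probe, annotated with a separate GenBank sequence, was at 4.16 and 3.66 and not above background on either array.

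TYRO3, the TAM receptor with a strong presence in brain and testis, read 6679 units in the pubertal culture against 2909 in the infant culture with its only probe. The difference was 1.11 ± 0.20, or 2.16-fold, with an interval of 0.71 to 1.51. It lay close to the limit of 2-fold and was 0.95 when the arrays were scaled on their medians.

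AXL, the TAM receptor that is also widespread in fibroblasts and stimulated by inflammation, read 4940 units in the pubertal culture against 5122 in the infant culture. The difference was -0.14 ± 0.20, with an interval of -0.54 to 0.26, so that the arrays did not differ beyond the scanner error. The 3 receptors therefore did not shift together. MERTK exceeded AXL by 1.65 ± 0.24 in its difference and TYRO3 exceeded AXL by 1.25 ± 0.29, gaps that scaling by a constant cannot change. MERTK and TYRO3 differed from each other by 0.40, with an interval of -0.07 to 0.86.

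GAS6, the vitamin K-dependent ligand of all 3 TAM receptors, had the highest difference of the members. Its only probe read 6685 units in the pubertal culture against 1980 in the infant culture, a difference of 1.67 ± 0.20 or 3.17-fold, with an interval of 1.27 to 2.07. PROS1 encodes protein S, an anticoagulant of plasma that also activates MERTK and TYRO3. The brighter measured PROS1 probe read 5275 and 2651 units, and the dimmer one 81.5 and 22.7, the latter near the lowest signals counted as above background. Both were higher on the pubertal array, by 0.90 ± 0.20 and 1.75 ± 0.33, so their mean of 1.33 ± 0.19 passed 2-fold while the brighter probe alone did not. The third PROS1 probe was below that flag on both arrays, at 10.8 and 9.67 units. With the normexp background correction the PROS1 difference was 0.81, and with the third probe included 0.91.

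MFGE8, a secreted protein that joins phosphatidylserine to integrins and is named for the milk fat globule, showed a smaller difference than GAS6 or PROS1. Its probes read 819 and 302 units in the pubertal culture and 552 and 269 in the infant culture. Their differences were 0.48 and 0.08, with a mean of 0.28 ± 0.15 and an interval that includes 0. The gap to GAS6 was 1.39 ± 0.25 and that to PROS1 1.05 ± 0.24. Both gaps were beyond the scanner error, whereas that between GAS6 and PROS1, at 0.34 with an interval of -0.21 to 0.89, was not. The place of PROS1 rested on its dimmer probe. With the brightest probe of each gene the gap of PROS1 to MFGE8 was 0.42, with an interval of -0.14 to 0.99 that includes 0, and that of GAS6 to PROS1 was 0.76, with an interval of 0.20 to 1.33 that does not.

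SCARB1 is the HDL receptor, which takes up cholesteryl esters in steroid-producing cells and binds phosphatidylserine of dying germ cells in Sertoli cells. Its brightest probe read 3576 units in the pubertal culture against 8611 in the infant culture, and the first SCARB1 probe printed above read 55.1 and 114. Both were lower in the pubertal culture, and the gene differed by -1.25 ± 0.16, or 2.37-fold lower. The other printed SCARB1 probe was above background on the infant array alone, at 68.5 units against 20.4, which put its pubertal signal at least 3.50-fold lower. SCARB1 was just inside 2-fold, at -0.98, with the normexp correction, and it stood at -0.24 on the spike-in scale.

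CD36, a scavenger receptor for oxidised lipids and fatty acids, was near the edge of measurement. Its better probe read 28.1 units in the pubertal culture against 30.2 in the infant culture. The difference of -0.20 ± 0.37 had an interval of -0.93 to 0.54, which includes 0, so its direction was not resolved at this signal. The other CD36 probe was above background on neither array. LRP1, a large endocytic receptor that also acts with calreticulin in engulfment, read 344 and 272 units, a difference of 0.25 ± 0.21 with an interval of -0.15 to 0.66, which also includes 0. ELMO1 read 140 and 135 units with its pair of probes in the pubertal culture and 198 and 166 in the infant culture. Its difference was -0.49 ± 0.15, short of 2-fold but beyond the scanner error, and with both probes in the same direction.

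**Figure D3:**
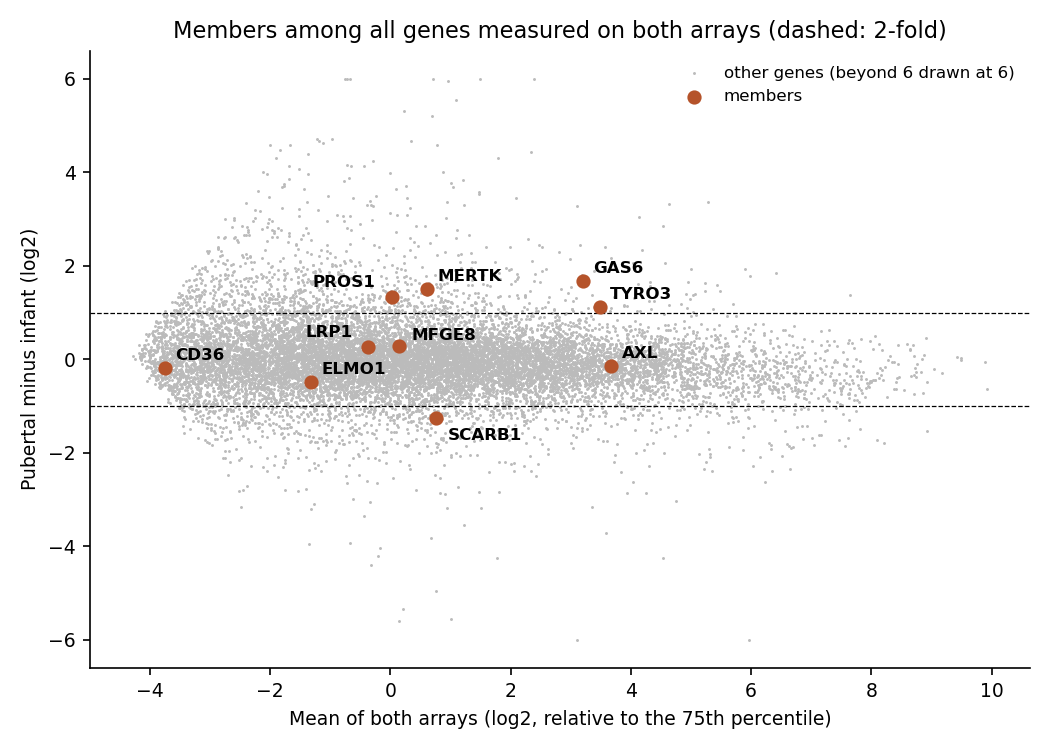
Difference between the arrays (pubertal minus infant, log2) against the mean log2 value of both arrays for 14243 genes, with the members in colour and 2-fold marked by dashed lines. GAS6 and TYRO3 lie among bright genes above the upper line, whereas CD36 lies at the dim end. A probe's signal also depends on its sequence, so the horizontal order of the members is not an order of mRNA amounts.

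Within the list of all measured genes, 3.29% had a higher difference than MERTK and 2.70% a higher one than GAS6, and 3.59% had a lower one than SCARB1. These shares describe the arrays and are no test.

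How far the arrays can be set on a common scale touches every value above. On the scale of the spike-in control RNA every difference rises by 1.00. Then 6 members were at least 2-fold higher and none lower, with MFGE8 (1.28) and LRP1 (1.26) joining the 4, beside 46.1% of all genes, and AXL (0.86), CD36 (0.81) and ELMO1 (0.51) turned positive. The directions of these 3, and the size of every value, thus hold against the 75th percentile used here, whereas a constant shift of this kind leaves the order of the members and the gaps between them as they are. The same holds for all other genes named below.

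The cultures also differed in markers of other cells. These values moved between the same 2 cultures, and their part in the results was not tested. The sums add the processed signal of each listed gene's brightest probe on each array, before scaling, also where it was not above background. Bright probes therefore dominate a sum, and a sum is no measure of the amount of marker mRNA. Macrophages express MERTK, CD36 and ELMO1 too. Of 16 macrophage markers, 11 were above background in the pubertal culture and 8 in the infant culture. Their summed signal was 2689 against 862 units, or 1410 against 720 without CD163. CD163 differed by 3.09, CSF1R by 2.07, PTPRC by 1.99 and TYROBP by 1.32, whereas CD68 differed by -0.94 and CD14, FCER1G and ITGAM by 0.60, 0.005 and -0.08. MRC1, AIF1 and C1QB, above background in the pubertal culture only, were at least 5.26-fold, 2.38-fold and 1.65-fold higher there. MRC1 had 1 spot in a disturbed area. C1QA, C1QC, LYZ, MARCO and VSIG4 were above background on neither array. In bulk RNA, fewer cells of a type and less RNA per cell cannot be told apart.

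Peritubular myoid and smooth muscle markers were 8 of 8 above background in both cultures. Their summed signal was 98522 units in the pubertal culture against 45763 in the infant culture, or 46664 against 17144 without CNN1. Of the 8, 6 were at least 2-fold higher in the pubertal culture, beside 7.32% of all genes. Of 7 fibroblast markers, 7 and 6 were above background and the summed signals were 32909 and 20708 units, or 15406 and 16171 without COL1A2. Of 10 endothelial markers, 5 and 4 were above background, with sums of 958 and 405 units, or 583 and 228 without VWF. All 4 measured on both arrays were higher in the pubertal culture: PECAM1 by 1.43, VWF by 0.99, CLDN5 by 0.68 and ESAM by 0.26. The ESAM difference was within its error of 0.38. TEK, above background in the pubertal culture only, was at least 2.06-fold higher there. CDH5, KDR, TIE1, EMCN and ROBO4 were above background on neither array. Of 14 germ cell markers, 8 were above background in the pubertal culture and 3 in the infant culture, with summed signals of 10048 and 4309 units. UTF1 supplied 6382 and 4125 of these, and without it the sums were 3665 and 184. DAZL and STK31 differed by 4.72 and 4.71, and SYCP3 and TEX11, above background in the pubertal culture only, were at least 34.5-fold and 18.9-fold higher there. The spermatid genes TNP1, PRM1, PRM2 and ACRV1 were above background on neither. Of 6 measured Leydig cell markers, 3 were lower in the pubertal culture, as SCARB1 was, and 3 were not. The sum over 7 was 19842 units in the pubertal culture against 58453 in the infant culture, with STAR at -4.24 (2158 and 38384 units), CYP17A1 at -4.21 and CYP11A1 at -1.37. Without STAR the sums were 17684 and 20069 units. INSL3, HSD17B3 and HSD3B2 stood at 0.41, 0.35 and 0.25, and LHCGR was above background on neither array. Sertoli cell markers summed to 233316 and 83665 units, of which transferrin (TF) made up 126891 and 13117. Without TF the sums were 106424 and 70548 units. Of the 12, TF (3.32), AMH (3.28) and DMRT1 (2.11) were at least 2-fold higher in the pubertal culture, and the other 9 lay within 2-fold.

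Among all genes measured on both arrays, 7.32% were at least 2-fold higher, 6.32% lower and 86.4% within 2-fold. These shares stand beside the counts of the marker lists above and of this and the following lists, and no more is read from the counts. Other receptors for dying cells differed in both directions. Of 18 listed, 10 were measured on both arrays, with a median difference of 0.37, 2 at least 2-fold higher and 1 lower. BAI1, a phosphatidylserine receptor that works through ELMO and DOCK, read 974 units in the pubertal culture against 342 in the infant culture, a difference of 1.42 ± 0.20. SCARF1, a scavenger receptor for complement-coated dying cells, was higher by 1.05 ± 0.20. ITGB3, an integrin subunit that pairs with alpha V to bind MFGE8, stood at 45.0 against 112 units, a difference of -1.40 ± 0.25. The other integrin subunits listed, ITGB5 and ITGAV, differed by 0.41 ± 0.20 and -0.10 ± 0.17, and were named after their values were seen. ITGB5 read 19654 units in the pubertal culture against 13912 in the infant culture. Another 7 were above background on neither array, and STAB2, above it in the pubertal culture only, was at least 1.16-fold higher there.

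Among 17 other bridging molecules, 8 were measured, with a median of -0.10, 2 at least 2-fold higher and 1 lower. LGALS3, or galectin-3, which has been described as a further MERTK ligand and is abundant in macrophages, read 6309 and 1864 units, a difference of 1.67 ± 0.20. ANXA5, which binds phosphatidylserine, was higher by 1.00 ± 0.20. PTX3, a pentraxin induced by inflammation that modulates uptake of dying cells, read 260 units in the pubertal culture against 2208 in the infant culture, a difference of -3.18 ± 0.21. APOH was above background in the pubertal culture only, where it was at least 5.43-fold higher, and SFTPA1 in the infant culture only, with a pubertal signal at least 2.12-fold lower.

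Of 26 adaptors and RAC regulators downstream of the receptors, 24 were measured with a median of -0.06, and 21 lay within 2-fold, where 86.4% of all genes lay too. VAV3, an exchange factor for RAC, was higher by 1.47 ± 0.21. DOCK4 and DOCK5, members of the family with which ELMO proteins pair, differed by -1.68 ± 0.16 and -1.50 ± 0.21. DOCK1, the best-known partner of ELMO1, ran the other way at 0.96 ± 0.12, and ELMO2 and ELMO3 stood at 0.33 and -0.34, all named here after their values were seen. Among 16 genes that process or relay TAM signals, 14 were measured with a median of -0.27, none was 2-fold higher and 3 were lower. Among these were the interferon receptor chain IFNAR1 (-1.36 ± 0.23), through which TAM receptors restrain inflammation, and ADAM10 (-1.09 ± 0.20), a sheddase. PLCG2, above background in the pubertal culture only, was at least 1.29-fold higher there.

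Genes that expose phosphatidylserine or carry the CD47 signal against engulfment had a median of -0.15 over 10 measured of 13, with none higher and 2 lower by 2-fold. SIRPA, the receptor for CD47, differed by -1.35 ± 0.12 and the lipid flippase ATP8A1 by -1.07 ± 0.32. CD47 itself, named after its value was seen, ran the other way at 0.74 ± 0.19. For phagosome maturation and LC3 lipidation, 19 of 20 genes were measured with a median of -0.10, 17 of them within 2-fold. PIK3C3, the lipid kinase that marks early phagosomes, differed by -1.71 ± 0.20, and the lysosomal nuclease DNASE2 by -1.01 ± 0.21.

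Genes that store or export engulfed lipid differed both ways. Of 22, 18 were measured with a median of -0.22, 2 at least 2-fold higher and 3 lower, beside 7.32% and 6.32% of all genes. NR1H3, the sterol-sensing nuclear receptor LXR-alpha, which is known to induce MERTK in macrophages, read 443 units in the pubertal culture against 118 in the infant culture, a difference of 1.82 ± 0.21. APOE, a carrier of exported cholesterol, was higher by 1.19 ± 0.20. The lipid droplet coat proteins ADFP, now called PLIN2, and M6PRBP1, now PLIN3, differed by -2.84 ± 0.20 and -1.12 ± 0.21, and the HDL protein APOA1 by -1.43 ± 0.20. PDZK1, the scaffold that holds SCARB1 at the membrane, was above background in the pubertal culture only and at least 1.79-fold higher there, opposite in direction to SCARB1 itself.

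Of 14 genes of the lipoprotein receptor family and its chaperone LRPAP1, 12 were measured with a median of -0.27, 2 at least 2-fold higher and 2 lower. LRP4 (1.24 ± 0.23) and SORL1 (1.07 ± 0.20) were among the higher, and LRP8 (-1.10 ± 0.15) was among the lower. LRP1 at 0.25 lay between them.

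**Figure D4:**
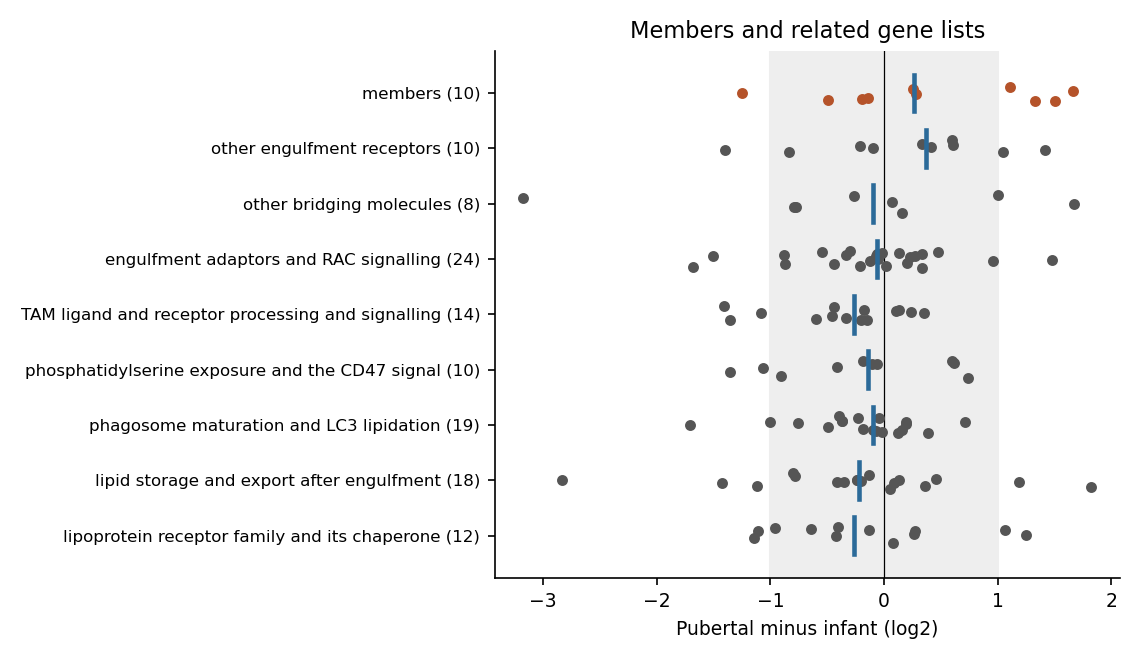
Differences (pubertal minus infant, log2) of the members and of the measured genes of 8 related lists, with the number of measured genes in brackets and the median as a blue bar. Vertical scatter within a row has no meaning. The medians of the 8 lists lie between -0.27 and 0.37, inside the grey band of 2-fold, and the lowest single value is PTX3 at -3.18.

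**Figure D5:**
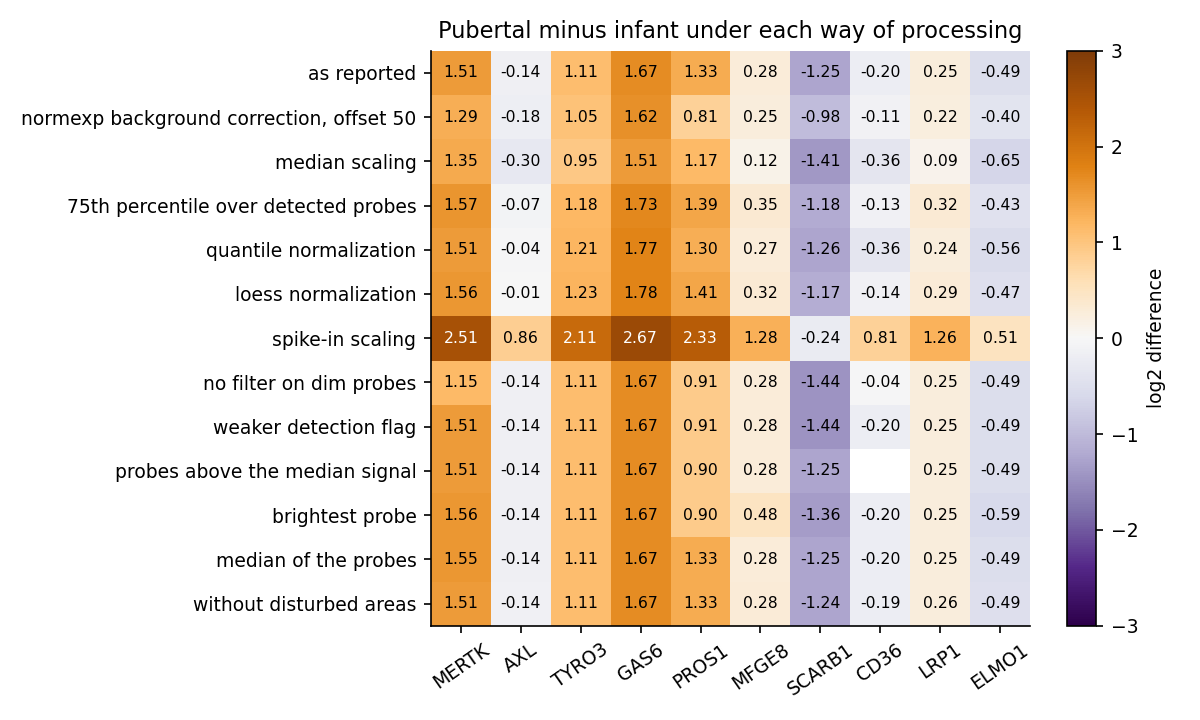
Difference of each member under each way of processing, with values printed in the cells and shown by colour. GAS6 and MERTK stay above 1 in every row, TYRO3 and PROS1 do not, and the row of spike-in scaling is raised by 1.00 throughout. CD36 has no value among probes above the median signal.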

How the data were processed

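RNA of 2 cultures was hybridised to 1 array per group, and per the file headers the authors deposited processed signal intensity from Agilent Feature Extraction 10.5.1.1, with spatial and multiplicative detrending and no scaling between arrays. The deposited flags mark spots well above background, saturated or outlying. The submitters' array is a human design. From these values, log2 of the processed signal minus the 75th percentile of gene spots was taken on each array, outlier spots were left out, and a gene was the mean of its probes well above background in at least 50% of spots on both arrays. Names equal to the accession field were not counted as genes. Each array had 51538 gene spots, of which 54.9% (pubertal) and 54.8% (infant) were well above background. A probe above background on 1 array gives a bound: its bright signal over its dim one, the latter raised to the lowest detected signal where it lay under that. Intervals are 95% from the scanner error. A fold of at least 2 was the call, with no test, since 2 arrays leave no replicates and their number limits the precision. The members and lists were chosen with earlier results of these data known. Of each list, the genes past 2-fold were named, at most 3 in each direction, with at most 2 seen on 1 array only. Some listed genes that qualified are not reported here. Areas where neighbouring spots differed together held 834 spots. Python 3.11.15, numpy 2.4.6, pandas 2.3.3, R 4.3.3 and limma 3.58.1 were used, and the gene summary was tested on simulated data. A total of 14 alternatives were tried: normexp correction (offset 50), 5 other scalings or normalizations, 3 filters, 2 summaries of probes, 2 thresholds, and disturbed areas left out. The brightest-probe gaps, the shared error of overlapping probes and the marker sums without their leading gene were added after seeing the data.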

Additional observations from a re-analysis of the deposited data

How the results depend on the processing

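Of 119 member differences recomputed under the alternatives, 103 stayed within the 95% interval of the scanner error and 16 did not. GAS6 ranged from 1.51 to 2.67 and MERTK from 1.15 to 2.51, and both stayed past 2-fold. TYRO3 was at 0.95 with median scaling. PROS1 was at 0.81 with normexp, at 0.91 without the dim filter or with the weaker flag, and at 0.90 with the brightest probe or probes above the median signal, where CD36 had no value. With normexp no member (0) was at least 2-fold lower, SCARB1 being at -0.98. With spike-in scaling 0 members were lower and the members' median was 1.27. At a 4-fold threshold 0 members were higher and 0 lower. No replicate could be left out. No call turned from higher to lower or the reverse. TYRO3, PROS1 and SCARB1 lost their calls under some alternatives, and all called members did at 4-fold. With spike-in scaling MFGE8 and LRP1 gained a call.

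Over all genes the main counts of 1042 higher and 900 lower became 553 and 568 with normexp, 6564 and 120 with spike-in scaling, 2081 and 1485 without the dim filter, 1710 and 1363 with the weaker flag, 2142 and 2392 at 1.5-fold, and 238 and 122 at 4-fold. The upward share of calls was 53.7% and moved to 37.6% with median scaling, which put the median gene at -0.22, and to 98.2% with spike-in scaling, which put it at 0.95. Of 320 list values, 254 stayed within 1.5 times (counts) or that interval (medians), and spike-in scaling moved 23 of its 24. The 1.5-fold and 4-fold thresholds, which alter counts by themselves, moved 9 and 12 of 16 values each. Signal near background limits CD36, the dimmer PROS1 probe and the SCARB1 probe measured in the infant culture only. The causes of these shifts were not tested. No paired analysis was possible because each group is 1 array.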
